A study of Homo sapiens with 12 samples.

Results

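DEAD-box proteins are the largest family of RNA helicases, and most of their genes carry DDX symbols. A DDX symbol is a name, and membership of the family was not checked here against protein sequence. The set described here holds the protein-coding genes whose symbol is DDX followed by a number and an optional letter, leaving out DDX58 and pseudogenes. Its members were set by name and not by measured values, although earlier results of these data were known when the set was chosen. The set held 38 of the 64252 gene IDs counted. Of these 38 genes, 31 passed the filter on low counts and were tested.

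Gene expression was measured by poly(A) RNA sequencing in MDA-MB-231, an established human line of triple-negative breast cancer. Cells were transfected with Lipofectamine 3000 and a plasmid that carried Dicer with mutation 1, Dicer with mutation 2, Dicer with mutation 3 or wild-type Dicer, with 3 libraries per group and 12 in all. All 4 groups thus carried a Dicer plasmid, the labels number the mutations without naming them and give no step that removed the Dicer of the cells themselves, and cells without a plasmid were not analysed here. Since the labels do not state whether each library had a culture of its own, p-values cover the spread among these samples alone, and that spread may be technical.

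DEAD-box proteins use ATP to open short RNA duplexes and to strip or load proteins on RNA. Members act at nearly every stage in the life of an RNA. DDX5 and DDX17 are cofactors of the microprocessor, the nuclear complex of DROSHA and DGCR8 that releases microRNA precursors for Dicer, and DDX6 acts where microRNAs silence their targets, while the largest group works in the nucleolus on ribosome assembly.

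Library totals ran from 13507341 to 17078273 counts, and the 38 genes together took 0.243% to 0.249% of the counts with mutation 1, 0.380% to 0.384% with mutation 2, 0.278% to 0.288% with mutation 3 and 0.338% to 0.363% with wild type. Wild-type replicate 1 stood apart: its Spearman correlation with wild-type replicates 2 and 3 over all tested genes was 0.945, against 0.998 between those replicates and 0.973 to 0.974 between it and the mutation 2 libraries. Over the 31 tested DDX genes its level lay nearest the mean of mutation 2 for 13 genes, of mutation 3 for 10, of mutation 1 for 2 and of wild-type replicates 2 and 3 for 6. Whether a label or a technical step sets it apart cannot be told apart from the files, and it enters every wild-type mean and SD. Counts and fold changes of DDX genes against wild type are therefore also given without it. Wild type then rests on 2 libraries, and the fit estimates spread over all groups together. Calls also rose between mutations, from 9879 of 15094 genes for mutation 1 against mutation 2 to 12676 of 15806 without wild-type replicate 1. The genes of the partner lists named as examples kept their direction and their call without it wherever they were called with all libraries. Calls could also be gained without it, as for DGCR8, lower with mutation 2, and EIF4A2, higher with mutation 3. DICER1 itself measured 38.8 to 45.6 CPM (counts per 1000000 counts, scaled between libraries) in the 9 mutant libraries, against 27.3, 45.1 and 47.4 CPM in wild type, where the lowest value was replicate 1. All 5 epithelial markers were detected in every library, and ESR1 and PGR stayed at or below 0.652 CPM, while 7 markers of other cell types summed to between 0.351 and 1.06 CPM in the mutant libraries and to 2.95, 18.1 and 16.1 CPM in wild type, where PECAM1 made up most. CD3E was at 0 in every library, and the part of these markers in the results was not tested. ESR1 and PGR belong to 6 reference genes of the line, with VIM, EGFR, CD44 and ERBB2. Of these 6, 4 passed the filter on low counts, and the level of ERBB2 is not given here.

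With mutation 1, the DDX genes were mostly lower than with wild type. Of the 31 tested, 25 were called at an adjusted p under 0.05 from edgeR's quasi-likelihood test, against 69.0% of all 15094 genes tested. Of these, 20 were lower and 5 higher, where 36.5% of all genes were lower and 32.5% higher. The median log2 fold change was -0.38 over the DDX genes and -0.04 over all genes. At least 2-fold changes were called for 9 lower DDX genes (19.2% of all genes) and 1 higher (15.9%), to which DDX19B, lower, and DDX3X, higher, were added without wild-type replicate 1. Without wild-type replicate 1, 28 were called (82.7% of all genes), 22 lower and 6 higher (42.5% and 40.2% of all genes), and the median was -0.59. With library totals alone as the scale, 23 of all members were lower and 4 higher, and the median over all genes itself shifted to -0.25, with 6638 genes lower and 3756 higher in place of 5510 and 4902.

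With mutation 3, 19 DDX genes were called against wild type, where 59.3% of all genes were. Of these, 14 were lower and 5 higher, against 31.2% and 28.1% of all genes. At least 2-fold changes were called for DDX28, which was lower (12.6% of all genes), and DDX47, which was higher (11.4%). Leaving out wild-type replicate 1, DDX47 no longer reached 2-fold, and DDX5 and DDX60, both lower, did. The median log2 fold change was -0.22, against -0.01 over all genes. In the fit without wild-type replicate 1, 26 were called (77.1% of all genes), 19 lower and 7 higher (38.8% and 38.2%). Library totals alone gave 19 lower and 4 higher of all members. Over all 15094 genes, 5504 were then lower and 3425 higher, with the median at -0.13.

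With mutation 2, 13 DDX genes were called against wild type, where 37.0% of all genes were. Of these, 9 were higher and 4 lower, against 16.9% and 20.1% of all genes, and none reached 2-fold, as 3.94% of all genes did upwards and 5.56% downwards. The median over the DDX genes was -0.00 and over all genes -0.01. This count depended on the libraries in the fit: leaving out wild-type replicate 1 raised it to 24, 11 higher and 13 lower, against 67.9%, 33.0% and 34.9% of all genes. DDX3X then passed 2-fold, with a log2 fold change of 1.03. Leaving out replicate 2 or replicate 3 of wild type, or library 2 of mutation 2, lowered it to 8. The calls over all genes were then 4375 of 15358, 4420 of 15571 and 4207 of 15793, against 5588 of 15094 with all libraries. All 3 comparisons share the same wild-type libraries, so they are not independent of each other.

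**Figure D1:**
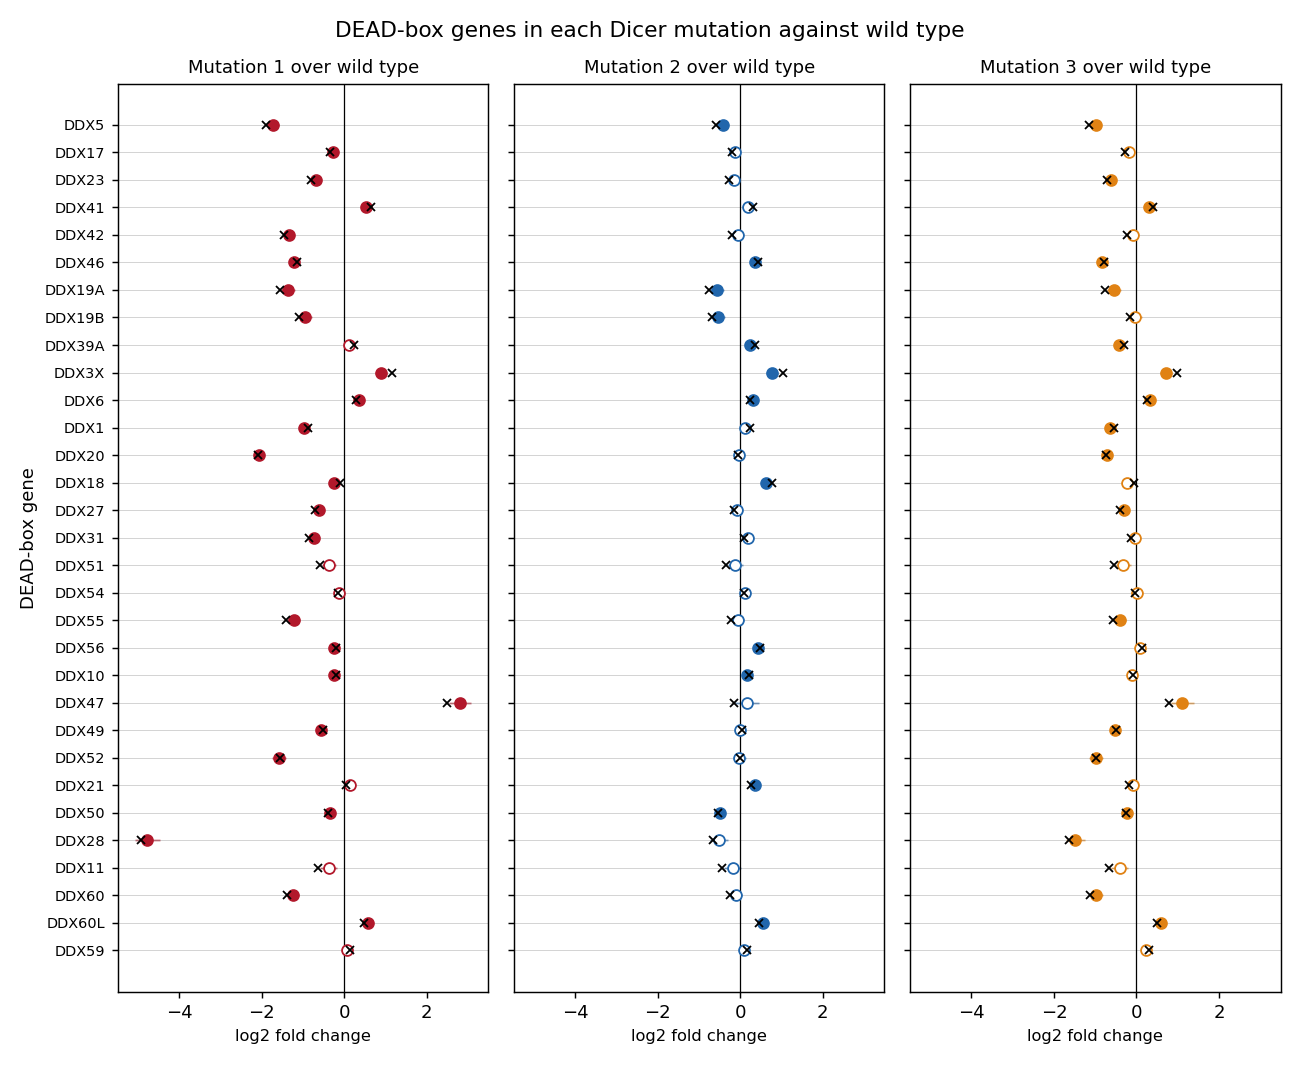
Log2 fold change of each of the 31 tested DDX genes with mutation 1, 2 or 3 over wild type, from left to right. Circles are estimates from all 12 libraries with bars of 1 standard error, filled where the adjusted p was under 0.05, and crosses are estimates without wild-type replicate 1. With mutation 1, DDX28 lies farthest left at -4.78 and DDX47 farthest right at 2.81, while with mutation 2 every filled circle lies within 1 log2 unit of 0.

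**Figure D2:**
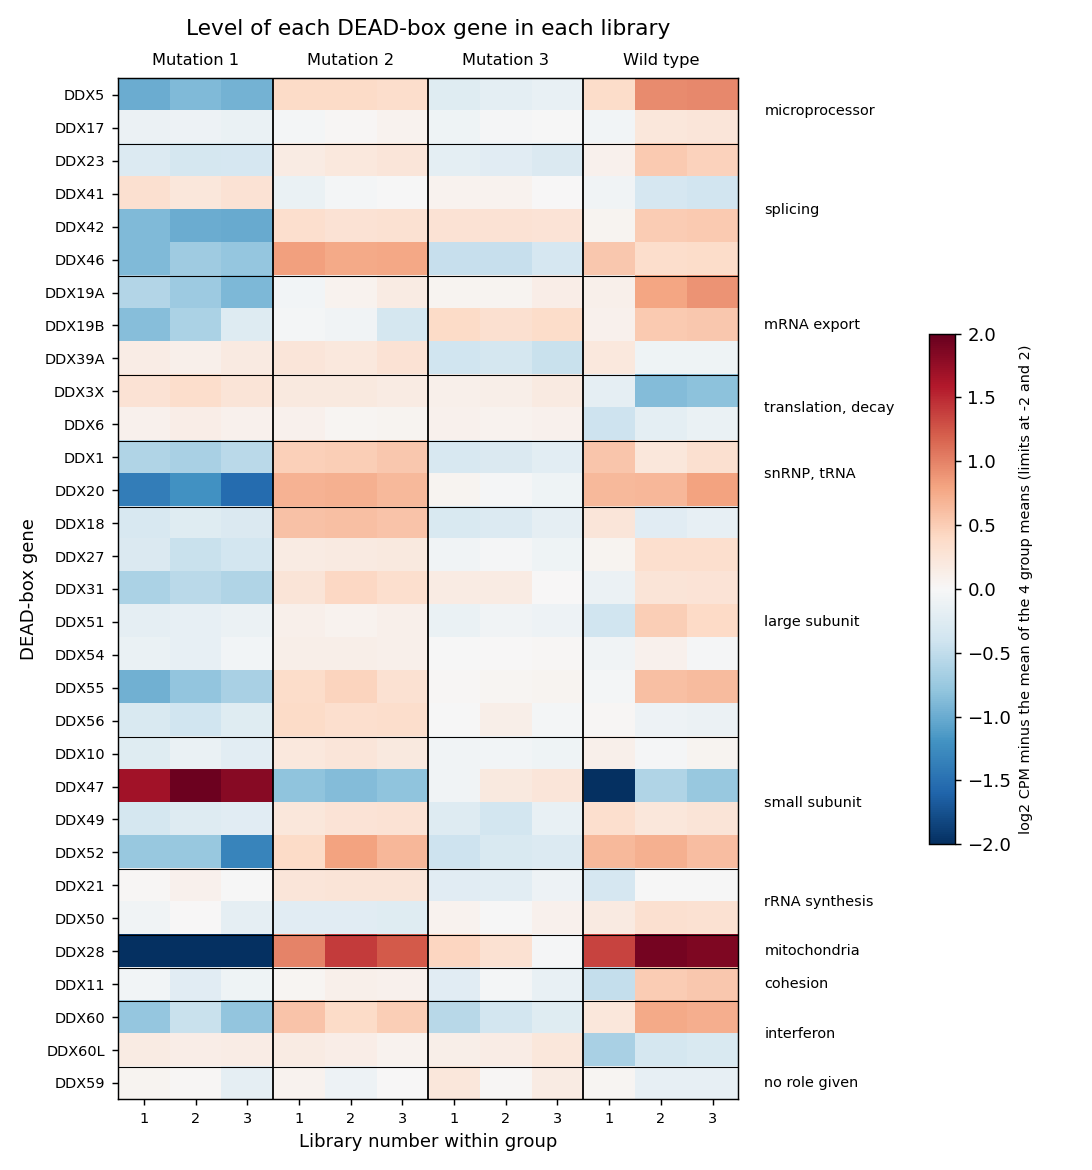
Level of each tested DDX gene in each of the 12 libraries, as log2 CPM minus the mean of the 4 group means, with genes grouped by role. Blue is low and red is high, and colours stop at -2 and 2. Mutation 1 is the bluest group over most genes, with DDX47, DDX41 and DDX3X among the exceptions, and the first wild-type column differs from the other two.

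The microprocessor cofactors differed from each other. DDX5 (p68, chr17:64499616-64508199, minus strand, hg38) helps DROSHA to process a subset of primary microRNAs and also serves in splicing and transcription. It measured 192, 207 and 198 CPM with mutation 1, 495, 500.0 and 484 CPM with mutation 2, 324, 332 and 345 CPM with mutation 3, and 491, 738 and 746 CPM with wild type. Libraries of mutations 1 and 3 all lay below every wild-type library, whereas mutation 2 overlapped wild type through replicate 1.

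DDX5 fell with mutations 1 and 3, with log2 fold changes of -1.72 (SE 0.13, adjusted p = 8.2e-07) and -0.98 (SE 0.13, adjusted p = 8.1e-05). With mutation 2 it was -0.42 (adjusted p = 0.0264), and this call was lost without wild-type replicate 2 or 3 (adjusted p = 0.0953 and 0.0966) or without any 1 of the mutation 2 libraries (0.066 to 0.0801). With wild-type replicate 1 left out, the values for mutations 1, 2 and 3 were -1.89, -0.58 and -1.15, all called. Among the mutations, the log2 fold change of DDX5 was -1.31 for mutation 1 over mutation 2, -0.74 for mutation 1 over mutation 3 and 0.56 for mutation 2 over mutation 3, each called.

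DDX17 (p72, chr22:38483440-38507660, minus strand), the close paralogue of DDX5, moved much less. It measured 139, 142 and 138 CPM with mutation 1, 147, 155 and 159 CPM with mutation 2, 142, 149 and 151 CPM with mutation 3, and 146, 178 and 179 CPM with wild type. Wild-type replicate 1 lay among the mutant libraries, and only mutation 1 was called, with a log2 fold change of -0.26 (SE 0.08, adjusted p = 0.0108). Without wild-type replicate 1 the log2 fold changes were -0.35, -0.21 and -0.27 for mutations 1, 2 and 3, all called.

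The ratio of DDX17 to DDX5 counts within a library does not depend on scaling. It was 0.724, 0.686 and 0.698 with mutation 1, 0.297, 0.309 and 0.328 with mutation 2, 0.439, 0.449 and 0.438 with mutation 3, and 0.297, 0.241 and 0.240 with wild type. The ratios of mutations 1 and 3 did not overlap those of wild type (exact two-sided permutation p = 0.1 for each, the smallest that 3 against 3 libraries allow), and those of mutation 2 did (p = 0.2). Adjusted over the 12 ratio tests, the smallest p was 0.133.

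The partners of these cofactors also differed. DGCR8, the RNA-binding subunit, averaged 4.18 ± 0.32 CPM with mutation 1 (SD, n = 3), 55.1 ± 2.86 CPM with mutation 2, 19.9 ± 0.652 CPM with mutation 3 and 52.6 ± 14.6 CPM with wild type. Its log2 fold change was -3.65 with mutation 1 (adjusted p = 6.41e-08) and -1.40 with mutation 3 (adjusted p = 4.89e-05), or -3.86 and -1.61 without wild-type replicate 1. DROSHA, the nuclease, averaged 60.2 ± 1.66, 104 ± 0.858 and 64.8 ± 2.01 CPM with mutations 1, 2 and 3 and 75.3 ± 2.27 CPM with wild type. Its log2 fold changes were -0.32, 0.46 and -0.22, or -0.30, 0.49 and -0.19 without wild-type replicate 1, all called.

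**Figure D3:**
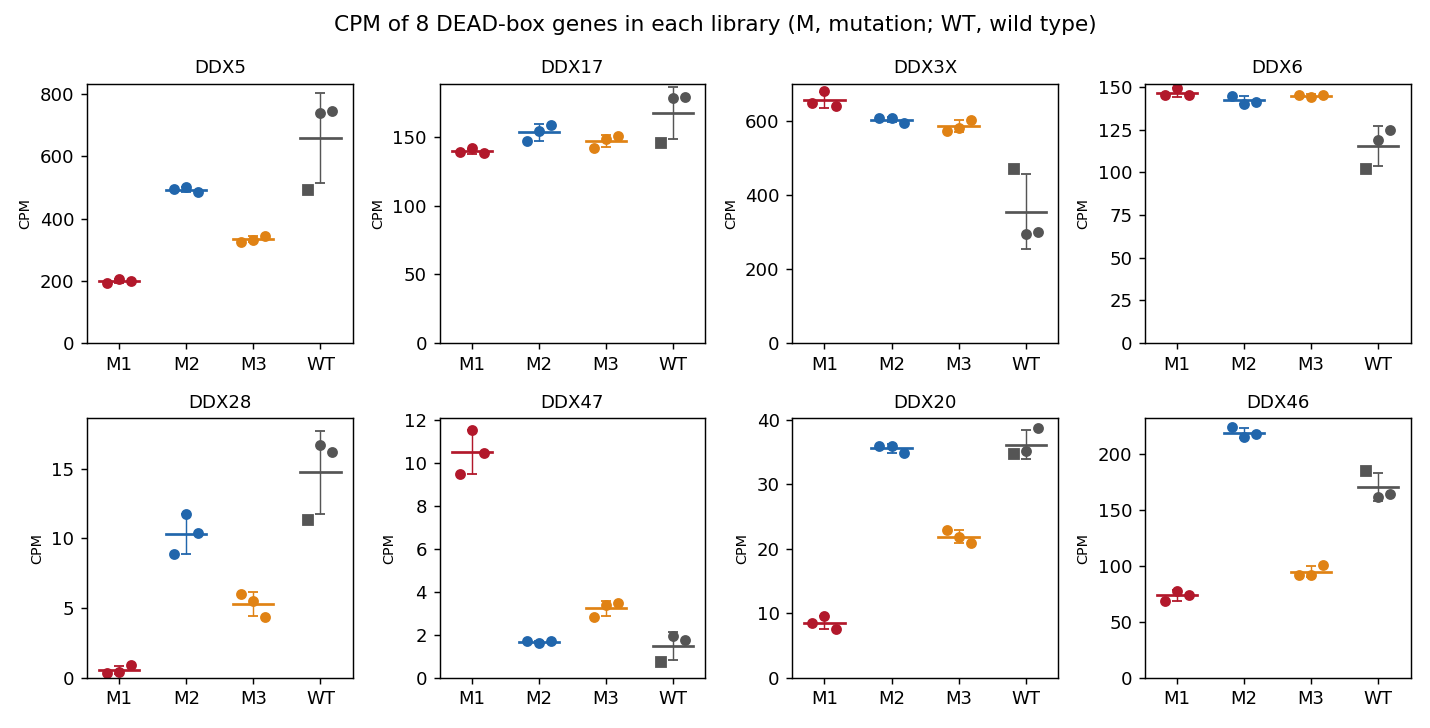
CPM of 8 DDX genes in each library, by group (M1, M2 and M3 are mutations 1 to 3, WT is wild type). Points are libraries, with wild-type replicate 1 as a square, and lines with bars are the mean and SD of 3 libraries. DDX5, DDX20, DDX28 and DDX46 are lowest with mutation 1, DDX3X is lowest with wild type, and DDX47 is highest with mutation 1.

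The DDX genes of mRNA translation, storage and decay were higher with each mutation. DDX3X (chrX:41333284-41364472, plus strand) helps ribosomes through structured leader sequences. It measured 649.9, 681 and 641 CPM with mutation 1, 608, 608 and 596 CPM with mutation 2, 574, 581 and 605 CPM with mutation 3, and 472, 294 and 302 CPM with wild type. All 9 mutant libraries lay above all wild-type libraries, and wild-type replicate 1 was the nearest to them.

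The log2 fold changes of DDX3X were 0.89, 0.76 and 0.72 for mutations 1, 2 and 3 (SE 0.15 each, adjusted p = 0.000301, 0.00243 and 0.0016). Without wild-type replicate 1 they were 1.15, 1.03 and 0.98. With only the libraries of the 2 groups in the fit, the call with mutation 2 was lost (adjusted p = 0.0534). No pair of mutations differed in DDX3X beyond the threshold (adjusted p = 0.483, 0.396 and 0.826).

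DDX6 (chr11:118747766-118791149, minus strand) is the decay helicase of P-bodies, which links the microRNA silencing complex to mRNA decapping through the CCR4-NOT deadenylase. It measured 145, 149.6 and 145 CPM with mutation 1, 145, 140.3 and 141 CPM with mutation 2, 145, 144 and 145 CPM with mutation 3, and 102, 119 and 125 CPM with wild type. Every mutant library lay above every wild-type library, and the mutant groups differed from each other by less than 10 CPM.

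DDX6 was higher by 0.35, 0.30 and 0.33 on the log2 scale with mutations 1, 2 and 3 (SE 0.07 each, adjusted p = 0.000958, 0.00581 and 0.00177), or by 0.27, 0.23 and 0.26 without wild-type replicate 1. With library totals alone, the increase with mutation 1 was 0.14 and was no longer called (adjusted p = 0.0789).

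Over all genes tested with all libraries, 32.5% were higher and 36.5% lower with mutation 1, 16.9% and 20.1% with mutation 2, and 28.1% and 31.2% with mutation 3. The shares without wild-type replicate 1 were 40.2% and 42.5%, 33.0% and 34.9%, and 38.2% and 38.8%. The counts of this and the later gene lists stand against the shares of the same fit. Of 19 decapping and deadenylation partners, 9 were higher and 7 lower with mutation 1, 5 higher and 3 lower with mutation 2, and 11 higher and 5 lower with mutation 3. Their median log2 fold changes were 0.26, 0.17 and 0.36. Once wild-type replicate 1 was left out, 10 were higher and 7 lower with mutation 1, 8 higher and 4 lower with mutation 2, and 13 higher and 6 lower with mutation 3. DCP2, the decapping enzyme, averaged 89.3 ± 3.35, 41.1 ± 2.15 and 66.7 ± 1.54 CPM with mutations 1, 2 and 3 and 31.4 ± 1.81 CPM with wild type. PATL1, a scaffold that binds DDX6, averaged 251 ± 2.42, 152 ± 5.61 and 203 ± 1.05 CPM with the mutations and 119 ± 3.33 CPM with wild type. CNOT1, the scaffold of CCR4-NOT, averaged 210 ± 3.42, 205 ± 2.70 and 278 ± 0.852 CPM with the mutations and 137 ± 3.38 CPM with wild type. All 3 genes were higher with each mutation (largest adjusted p = 0.000953, DCP2 with mutation 2).

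Among the splicing helicases, 3 of 4 tested fell with mutation 1 and the remaining one, DDX41, rose. DDX46 (chr5:134758771-134855133, plus strand), the homologue of yeast Prp5 that acts when the U2 snRNP joins the branch site, measured 68.6, 77.7 and 73.97 CPM with mutation 1, 224, 215 and 218 CPM with mutation 2, 91.6, 91.8 and 100.3 CPM with mutation 3, and 185, 162 and 164 CPM with wild type. No group overlapped another, and mutation 2 lay above wild type while mutations 1 and 3 lay below. DDX46 had log2 fold changes of -1.21, 0.36 and -0.85 (adjusted p = 1.17e-07, 0.00243 and 3.02e-06), or -1.14, 0.43 and -0.78 without wild-type replicate 1, all called.

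DDX42, another U2 snRNP factor, fell with mutation 1 (log2 fold change -1.33, adjusted p = 1.09e-06), with 71.8 ± 3.52 CPM against 181 ± 31.2 CPM in wild type. Mutations 2 and 3 averaged 173 ± 2.81 and 170 ± 1.16 CPM and were not called with all libraries (log2 fold changes -0.07 and -0.09). Leaving out wild-type replicate 1, DDX42 was called lower with all 3 mutations, at -1.47, -0.20 and -0.22. DDX23 (human PRP28, of the U5 snRNP) had log2 fold changes of -0.69 with mutation 1 and -0.61 with mutation 3, both called, and values of -0.81, -0.28 and -0.72 for mutations 1, 2 and 3 without wild-type replicate 1, all called. DDX41 averaged 111 ± 3.53, 87.2 ± 3.79 and 94.3 ± 2.54 CPM with mutations 1, 2 and 3 and 76.5 ± 9.19 CPM with wild type. It rose by 0.53 with mutation 1 and by 0.30 with mutation 3, and the call with mutation 3 was lost with library totals alone (0.18, adjusted p = 0.0926) and without mutation 3 library 1 or 2 (adjusted p = 0.0558 and 0.0544). Without wild-type replicate 1, the values for mutations 1, 2 and 3 were 0.64, 0.30 and 0.41, all called.

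In the mRNA export group, DDX19A and DDX19B are close paralogues that act at the nuclear pore and lie side by side on chromosome 16. DDX19A (chr16:70346829-70373383, plus strand) measured 19.7, 18.0 and 15.9 CPM with mutation 1, 28.8, 31.0 and 33.4 CPM with mutation 2, 30.8, 30.9 and 32.5 CPM with mutation 3, and 31.8, 51.2 and 55.4 CPM with wild type. Mutation 1 lay below all other libraries, and mutations 2 and 3 overlapped wild type through replicate 1. DDX19A had log2 fold changes of -1.36, -0.57 and -0.56 (adjusted p = 4.54e-05, 0.0232 and 0.016). Without wild-type replicate 2 or 3, the calls with mutation 2 (adjusted p = 0.0778 and 0.0892) and with mutation 3 (0.0545 and 0.0642) were lost, and the call with mutation 2 also without its library 1 or 2. The values without wild-type replicate 1 were -1.56, -0.77 and -0.76, all called.

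DDX19B (chr16:70289663-70335283, plus strand) measured 5.34, 6.24 and 8.05 CPM with mutation 1, 9.35, 9.20 and 7.55 CPM with mutation 2, 12.6, 12.01 and 12.5 CPM with mutation 3, and 10.2, 13.8 and 14.0 CPM with wild type. Mutations 1 and 2 lay below wild type, and mutation 3 lay within its range. For DDX19B the log2 fold changes were -0.96, -0.55 and -0.04 (adjusted p = 0.000474, 0.0252 and 0.851). The call with mutation 2 was lost without wild-type replicate 2 or 3 (adjusted p = 0.0809 and 0.0833) and without mutation 2 library 2 or 3. The values without wild-type replicate 1 were -1.10, -0.68 and -0.17, and the last was not called. Of the exon bases, 26.9% for DDX19A and 19.7% for DDX19B also belong to other annotated genes, most of them to 1 unnamed gene that spans both, so the levels of both are uncertain.

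DDX39A, a helicase of the TREX export complex, averaged 175 ± 5.11, 188 ± 5.09 and 120.1 ± 4.49 CPM with mutations 1, 2 and 3 and 160.5 ± 20.3 CPM with wild type. It fell with mutation 3 (log2 fold change -0.42, adjusted p = 0.00111). The call with mutation 2 (0.23, adjusted p = 0.0437) was lost without any 1 library other than wild-type replicate 1, without which DDX39A was at 0.23, 0.35 and -0.30 with mutations 1, 2 and 3, all called. Of 14 tested mRNA export partners, 10 were lower and 3 higher with mutation 1, 2 lower and 1 higher with mutation 2, and 10 lower and 2 higher with mutation 3. Of the 15 tested without wild-type replicate 1, 10 were lower and 3 higher with mutation 1 and with mutation 3, and 7 lower and 3 higher with mutation 2. NUP42, a pore protein near which DDX19 works, averaged 6.55 ± 0.602 and 10.5 ± 0.806 CPM with mutations 1 and 3 and 17.6 ± 0.674 CPM with wild type. GLE1, the activator of DDX19, averaged 37.5 ± 1.33 CPM with mutation 1 and 75.02 ± 1.17 CPM with wild type.

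Both helicases of small RNP assembly and tRNA ligation fell with mutations 1 and 3. DDX20 (Gemin3, chr1:111755245-111768016, plus strand) is a subunit of the SMN complex, which loads Sm proteins on snRNAs, and it has also been found with Argonaute proteins. It measured 8.43, 9.59 and 7.57 CPM with mutation 1, 35.9, 36.0 and 34.8 CPM with mutation 2, 22.9, 21.8 and 20.9 CPM with mutation 3, and 34.6, 35.2 and 38.6 CPM with wild type. Mutation 1 was lowest and mutation 3 next, neither overlapping wild type, and mutation 2 lay within the wild-type range.

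DDX20 fell with mutation 1 (log2 fold change -2.08, SE 0.09, adjusted p = 1.57e-08) and with mutation 3 (-0.72, SE 0.09, adjusted p = 3.85e-05), and the value with mutation 2 was -0.02 (adjusted p = 0.852). Once wild-type replicate 1 was left out, the values were -2.10, -0.05 and -0.74 for mutations 1, 2 and 3, with the same calls. DDX1, a subunit of the tRNA ligase complex, averaged 63.6 ± 2.68, 135 ± 3.10 and 79.4 ± 3.20 CPM with mutations 1, 2 and 3 and 125 ± 14.9 CPM with wild type. It fell with mutations 1 and 3, with log2 fold changes of -0.97 and -0.65 (adjusted p = 1.53e-06 and 4.94e-05). In the fit without wild-type replicate 1, these were -0.87 and -0.55, and DDX1 was called higher with mutation 2, at 0.23.

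Of the 8 other SMN complex genes, 5 were lower and 2 higher with mutation 1, 2 lower and 1 higher with mutation 2, and 4 lower and 3 higher with mutation 3. Leaving out wild-type replicate 1, these were 5 and 2, 2 and 2, and 5 and 3. GEMIN4, which binds DDX20 in the complex, averaged 27.4 ± 1.68 CPM with mutation 1 and 59.1 ± 2.25 CPM with mutation 3, against 94.6 ± 8.59 CPM with wild type, with log2 fold changes of -1.79 and -0.68. STRAP, another subunit, averaged 96.8 ± 2.06, 121 ± 2.81 and 79.0 ± 3.97 CPM with the mutations and 179 ± 20.7 CPM with wild type, and fell with each.

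Helicases of the large ribosomal subunit held 7 tested genes. Of these, 5 were lower and none higher with mutation 1, 2 were lower and none higher with mutation 3, and none were lower and 2 higher with mutation 2. With wild-type replicate 1 left out, 6 were lower and none higher with mutation 1, 3 lower and 1 higher with mutation 3, and 3 lower and 2 higher with mutation 2. DDX18 (chr2:117814650-117832379, plus strand) measured 73.1, 77.2 and 75.1 CPM with mutation 1, 137, 139 and 136 CPM with mutation 2, 74.3, 76.1 and 80.8 CPM with mutation 3, and 108, 78.7 and 82.2 CPM with wild type. Mutation 2 lay above all other libraries, and wild-type replicate 1 was the only one between it and the rest. DDX18 rose with mutation 2 (log2 fold change 0.61, adjusted p = 0.00102, or 0.78 without that replicate). The value with mutation 1 was -0.26 (adjusted p = 0.0445), or -0.09 and no longer called without that replicate (adjusted p = 0.0635), and DESeq2 did not call it (adjusted p = 0.111). This call was also lost without any 1 mutant library (adjusted p = 0.0644 to 0.17).

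DDX56 (chr7:44565417-44575051, minus strand) measured 70.4, 66.1 and 74.04 CPM with mutation 1, 114, 110 and 112 CPM with mutation 2, 86.5, 94.6 and 84.6 CPM with mutation 3, and 88.7, 81.7 and 80.0 CPM with wild type. Mutation 1 lay below wild type and mutation 2 above it, while mutation 3 overlapped it. DDX56 had log2 fold changes of -0.25, 0.42 and 0.09 (adjusted p = 0.00607, 0.000708 and 0.284), and the call with mutation 1 was lost without its library 2 (adjusted p = 0.059). Without wild-type replicate 1, DDX56 was called with all 3 mutations, at -0.20, 0.47 and 0.14. With mutation 1, DDX55 averaged 19.3 ± 2.07 CPM against 45.1 ± 10.8 CPM in wild type, and the log2 fold changes of DDX55, DDX31 and DDX27 were -1.23, -0.74 and -0.62, or -1.41, -0.85 and -0.70 without wild-type replicate 1, all called. DDX55, DDX31 and DDX27 share 9.38%, 6.62% and 3.72% of their exon bases with EIF2B1, GTF3C4 and ZNFX1. These partners were also called lower with mutation 1 (-1.08, -0.40 and -1.98), and their part in the counts was not tested. With mutation 3, DDX27 and DDX55 were called lower (-0.31 and -0.40), and the call of DDX55 (adjusted p = 0.0421) was lost without wild-type replicate 2 or 3 (adjusted p = 0.14 and 0.147). It was also lost without any 1 library of mutation 2 or 3 (adjusted p = 0.0556 to 0.0745) and with only the libraries of the 2 groups in the fit (0.102). DDX51 and DDX54 were not called against wild type with all libraries. Leaving out wild-type replicate 1, DDX51 was called lower with all 3 mutations (-0.59, -0.34 and -0.54) and DDX54 with mutation 1 (-0.15).

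The small subunit helicases moved in opposite directions. DDX52 (chr17:37609739-37643464, minus strand), whose yeast homologue Rok1 acts in 18S rRNA processing, measured 2.95, 2.95 and 1.99 CPM with mutation 1, 6.54, 8.75 and 7.94 CPM with mutation 2, 3.75, 4.05 and 4.14 CPM with mutation 3, and 7.87, 8.15 and 7.62 CPM with wild type. Mutations 1 and 3 lay below wild type and mutation 2 overlapped it. DDX52 had log2 fold changes of -1.57, -0.02 and -0.98 (adjusted p = 1.13e-05, 0.92 and 0.000398), or -1.56, -0.02 and -0.99 without wild-type replicate 1, with the same calls.

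DDX47 (chr12:12813316-12829981, plus strand), whose yeast homologue is Rrp3, measured 9.49, 11.5 and 10.4 CPM with mutation 1, 1.69, 1.62 and 1.69 CPM with mutation 2, 2.81, 3.39 and 3.48 CPM with mutation 3, and 0.721, 1.95 and 1.75 CPM with wild type. Mutation 1 lay far above all other libraries, and the wild-type values rested on 11, 35 and 27 counts. The log2 fold changes were 2.81 with mutation 1 (SE 0.27, adjusted p = 4.51e-06), 0.17 with mutation 2 and 1.11 with mutation 3 (adjusted p = 0.00515). The call with mutation 3 was lost with only the libraries of the 2 groups in the fit (adjusted p = 0.0512). Once wild-type replicate 1 was left out, DDX47 was at 2.50, -0.15 and 0.79 with mutations 1, 2 and 3, with the same calls.

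Counting was without strand, and 36.5% of the exon bases of DDX47 are also exons of other genes, 1841 bases of them of APOLD1. APOLD1 averaged 13.9 ± 0.376, 7.55 ± 0.377 and 25.4 ± 1.53 CPM with mutations 1, 2 and 3 and 9.06 ± 0.218 CPM with wild type. Its log2 fold changes against wild type were 0.62, -0.26 and 1.49 with mutations 1, 2 and 3, all called. APOLD1 was thus higher with mutations 1 and 3, as DDX47 was. Its highest level was with mutation 3, and that of DDX47 with mutation 1. The part of APOLD1 in the DDX47 counts was not tested. DDX49 averaged 33.9 ± 1.61, 49.6 ± 1.13 and 34.5 ± 2.65 CPM with mutations 1, 2 and 3 and 49.7 ± 2.04 CPM with wild type, with called log2 fold changes of -0.55 with mutation 1 and -0.53 with mutation 3 (-0.52 and -0.49 without wild-type replicate 1, both called). DDX10 was 0.17 higher with mutation 2 (adjusted p = 0.0315), a call lost without any 1 library other than wild-type replicate 1, and 0.20 higher without that one. With mutation 1 it was lower (-0.24, or -0.21 without that replicate).

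DDX21 and DDX50 are nucleolar paralogues that act in rRNA transcription and processing and lie next to each other on chromosome 10. DDX50 (chr10:68901278-68946847, plus strand) measured 63.7, 67.1 and 58.9 CPM with mutation 1, 57.3, 57.1 and 56.5 CPM with mutation 2, 70.0, 66.4 and 71.1 CPM with mutation 3, and 76.1, 83.8 and 82.4 CPM with wild type. Every mutant library lay below every wild-type library. DDX50 had log2 fold changes of -0.35, -0.50 and -0.22 (adjusted p = 0.000476, 0.000182 and 0.0099), and with no filter on low counts the call with mutation 3 was lost (adjusted p = 0.0572). The values without wild-type replicate 1 were -0.39, -0.54 and -0.26, all called. DDX21 measured 249, 258 and 243 CPM with mutation 1 and averaged 290.1 ± 2.06 CPM with mutation 2, 215 ± 9.35 CPM with mutation 3 and 226 ± 28.6 CPM with wild type, and rose with mutation 2 by 0.36 (adjusted p = 0.00657). Leaving out wild-type replicate 1, it was 0.26 with mutation 2, and DDX21 was called lower with mutation 3 (-0.17). The log2 ratio of DDX50 to DDX21 counts differed from wild type by -0.50, -0.87 and -0.16 for mutations 1, 2 and 3, with no overlap of libraries (exact permutation p = 0.1 each).

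Of 39 tested nucleolar ribosome assembly factors that are not DEAD-box genes, 29 were lower and 4 higher with mutation 1, 3 lower and 18 higher with mutation 2, and 19 lower and 8 higher with mutation 3. Their median log2 fold changes were -0.67, 0.22 and -0.16. In the fit without wild-type replicate 1, 31 were lower and 5 higher with mutation 1, 10 lower and 24 higher with mutation 2, and 20 lower and 11 higher with mutation 3. BOP1, a large subunit factor, averaged 46.0 ± 1.26 CPM with mutation 1 and 64.5 ± 2.19 CPM with mutation 3, against 124 ± 10.1 CPM with wild type. UBTF, which drives rRNA gene transcription, averaged 49.3 ± 1.82 and 71.8 ± 2.49 CPM with mutations 1 and 3 and 127 ± 15.04 CPM with wild type. POLR1A, the large subunit of RNA polymerase I, averaged 183 ± 4.28 CPM with mutation 2 and 100.1 ± 12.4 CPM with wild type.

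DDX28 (chr16:68021274-68023442, minus strand), a mitochondrial helicase needed for the mitochondrial large ribosomal subunit, showed the largest decrease of the family. It measured 0.351, 0.402 and 0.877 CPM with mutation 1, 8.86, 11.73 and 10.4 CPM with mutation 2, 6.001, 5.48 and 4.37 CPM with mutation 3, and 11.3, 16.7 and 16.2 CPM with wild type. The mutation 1 libraries held 5, 6 and 11 counts, against 173, 300 and 251 in wild type, with mutation 3 between and mutation 2 overlapping replicate 1. DDX28 fell with mutation 1 (log2 fold change -4.78, SE 0.30, adjusted p = 1.88e-07) and with mutation 3 (-1.48, SE 0.23, adjusted p = 0.00024), and the value with mutation 2 was -0.52 (adjusted p = 0.0866), or -0.67 and called without wild-type replicate 1. The values for mutations 1 and 3 without that replicate were -4.94 and -1.62.

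DDX28 lies within the bounds of DUS2, with which it shares 487 exon bases, 22.5% of its own. DUS2 averaged 10.6 ± 1.54, 11.8 ± 0.869 and 27.9 ± 0.763 CPM with mutations 1, 2 and 3 and 18.0 ± 2.10 CPM with wild type. Its log2 fold changes were -0.77, -0.62 and 0.63, all called. DUS2 was thus lower with mutation 1, as DDX28 was, and higher with mutation 3, where DDX28 was lower. The part of DUS2 in the DDX28 counts was not tested. Mitochondrially encoded mRNAs took 1.27% to 1.36% of counts with mutation 1, 4.48% to 5.57% with mutation 2, 4.81% to 5.05% with mutation 3, and 1.34%, 5.04% and 5.09% in wild-type replicates 1, 2 and 3. The part of this share in the DDX28 values was not tested.

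The interferon-induced DDX60 and its neighbour DDX60L on chromosome 4 moved apart. Both are large helicases of antiviral responses. The RefSeq promoter table (GRCh38.p14) held windows from 250 bases before to 50 bases after the start for 34 of the DDX genes. The core of the interferon-stimulated response element, searched on both strands as GAAA, any 2 bases and GAAA again, occurred in the windows of DDX60 and DDX60L and of no other DDX gene, against 4.38% of 27305 genes and 4.16% of 15843 protein-coding genes. The 250 bases before each start are shown because they carry the feature that the 2 genes share, 5′ to 3′ on the minus strand with the matches in capitals.
DDX60, chr4:168318753-168319002: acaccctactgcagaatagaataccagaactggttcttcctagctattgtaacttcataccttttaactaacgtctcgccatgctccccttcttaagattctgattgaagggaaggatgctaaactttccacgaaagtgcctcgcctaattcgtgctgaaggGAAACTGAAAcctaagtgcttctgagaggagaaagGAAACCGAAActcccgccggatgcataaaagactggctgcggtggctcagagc
DDX60L, chr4:168480493-168480742: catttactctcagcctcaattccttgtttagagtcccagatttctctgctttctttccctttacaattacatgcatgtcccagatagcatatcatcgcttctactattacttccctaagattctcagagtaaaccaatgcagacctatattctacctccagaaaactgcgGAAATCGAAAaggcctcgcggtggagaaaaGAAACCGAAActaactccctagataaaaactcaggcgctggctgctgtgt

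Each window held 2 matches. GAAACCGAAA occurred in both, at bases -53 to -44 before the start of DDX60 and at -50 to -41 before that of DDX60L. The second match was GAAACTGAAA at -88 to -79 for DDX60 and GAAATCGAAA at -80 to -71 for DDX60L. A match describes the sequence and is not evidence of binding.

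DDX60 measured 12.1, 15.2 and 11.96 CPM with mutation 1, 30.7, 27.1 and 29.2 CPM with mutation 2, 14.1, 16.1 and 17.5 CPM with mutation 3, and 24.3, 35.0 and 34.2 CPM with wild type. Mutations 1 and 3 lay below wild type and mutation 2 within its range. DDX60 fell with mutations 1 and 3, with log2 fold changes of -1.25 and -0.97 (SE 0.15 each, adjusted p = 3.05e-05 and 0.000264), and the value with mutation 2 was -0.10 (adjusted p = 0.615). Leaving out wild-type replicate 1, DDX60 was called lower with all 3 mutations, at -1.39, -0.25 and -1.12.

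DDX60L measured 24.5, 23.9 and 24.2 CPM with mutation 1, 24.5, 23.97 and 22.8 CPM with mutation 2, 23.8, 24.2 and 25.5 CPM with mutation 3, and 13.9, 17.1 and 17.6 CPM with wild type. All mutant libraries lay above all wild-type libraries, and the mutations were level with each other. It rose by 0.58, 0.55 and 0.59 on the log2 scale (SE 0.09 each, adjusted p = 0.000195, 0.000974 and 0.000225), or by 0.48, 0.45 and 0.50 without wild-type replicate 1.

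The ratio of DDX60L to DDX60 counts was 2.03, 1.58 and 2.02 with mutation 1, 0.797, 0.885 and 0.782 with mutation 2, 1.69, 1.50 and 1.45 with mutation 3, and 0.574, 0.490 and 0.517 with wild type. No mutant library overlapped wild type. The log2 ratio was higher by 1.82, 0.64 and 1.56 with mutations 1, 2 and 3 (exact permutation p = 0.1 each).

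**Figure D4:**
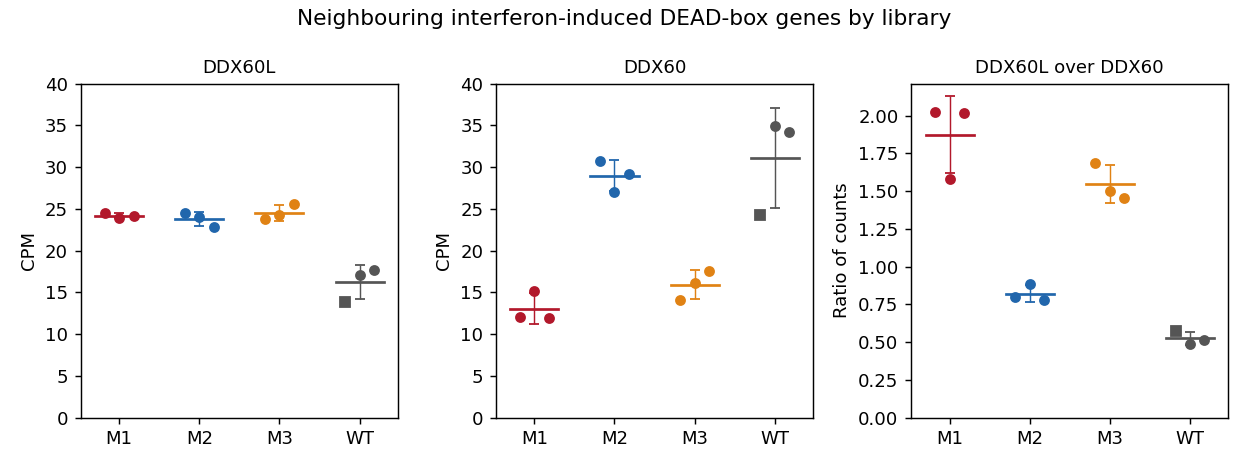
CPM of DDX60L and DDX60 and the ratio of their counts in each library, by group (M1, M2 and M3 are mutations 1 to 3, WT is wild type). Points are libraries, with wild-type replicate 1 as a square, and lines with bars are the mean and SD of 3 libraries. DDX60L is higher in every mutant library than in wild type, DDX60 is lower with mutations 1 and 3, and the ratio is highest with mutation 1.

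Of 14 other interferon-stimulated genes, 10 were lower and 1 higher with mutation 1, 2 lower and 3 higher with mutation 2, and 11 lower and 1 higher with mutation 3, with medians of -1.63, -0.19 and -1.64. The counts for mutations 1, 2 and 3 without wild-type replicate 1 were 10 lower and 4 higher, 6 lower and 4 higher, and 11 lower and 3 higher. IFIT3, an antiviral RNA-response protein, averaged 20.6 ± 1.00 CPM with mutation 1 and 37.9 ± 1.26 CPM with mutation 3, against 93.9 ± 1.55 CPM with wild type. OASL averaged 0.781 ± 0.194 and 3.34 ± 0.521 CPM with mutations 1 and 3, against 29.97 ± 4.33 CPM with wild type. DDX60 thus had the direction of most of these genes with mutations 1 and 3, and DDX60L did not.

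DDX11, a DNA helicase of sister chromatid cohesion, was not called in any comparison with all libraries. It averaged 62.9 ± 3.66, 72.1 ± 1.39 and 62.1 ± 3.97 CPM with mutations 1, 2 and 3 and measured 49.02, 97.7 and 98.9 CPM in wild type, so replicate 1 lay below and replicates 2 and 3 above every mutant library. Leaving out replicate 1, it was called lower with mutations 1, 2 and 3, at -0.64, -0.44 and -0.66. Of its 100-base transcript windows, 8.25% also occur in other genes, most in the copy DDX12B, and its level is uncertain. DDX59 measured between 16.0 and 21.1 CPM in all libraries and was called in no comparison with all libraries. With wild-type replicate 1 left out, it was called higher with mutation 3 (0.31, adjusted p = 0.00118).

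Compared among themselves, the mutations kept one order for many DDX genes. With no overlap of libraries, mutation 1 was lowest, mutation 3 next and mutation 2 highest for 12 of the 31 genes, where 15.4% of all genes had that order. These were DDX1, DDX5, DDX10, DDX20, DDX27, DDX28, DDX31, DDX46, DDX52, DDX54, DDX55 and DDX56. The reverse order held for 2 genes (15.6% of all genes), one of them DDX47. Mutation 3 was lowest, mutation 1 next and mutation 2 highest for 2 genes (5.04%), and no DDX gene had any of the other 3 orders (3.45%, 4.8% and 3.66% of all genes).

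With mutation 1 against mutation 2, 21 DDX genes were called, where 65.4% of all genes were. Of these, 19 were lower and 2 higher, against 33.6% and 31.8% of all genes, and the median log2 fold change was -0.53 against -0.03 over all genes. The log2 fold changes of DDX28, DDX20, DDX46 and DDX52 were -4.26, -2.06, -1.58 and -1.55, and those of DDX47 and DDX41 were 2.65 and 0.34. The call for DDX41 was lost with library totals alone (0.14, adjusted p = 0.183), where 24 of all members were lower and 1 higher. Over all 15094 genes, 6262 were then lower and 3678 higher, and the median shifted to -0.23. With mutation 1 against mutation 3, 16 were called, where 42.8% of all genes were, 13 lower and 3 higher against 22.5% and 20.2%. The log2 fold changes of DDX28, DDX20 and DDX42 were -3.30, -1.35 and -1.24. With library totals alone, 16 of all members were lower and 2 higher. Over all genes, 4155 were then lower and 2361 higher, and the median was -0.11.

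With mutation 2 against mutation 3, 18 DDX genes were called, where 52.9% of all genes were. Of these, 15 were higher and 3 lower, against 27.2% and 25.7% of all genes, and the median was 0.24 against 0.00. Library totals alone gave 18 higher and 2 lower of all members. Over all genes, 4948 were then higher and 3160 lower, with the median at 0.12. DDX46 was higher by 1.21, DDX28 and DDX52 by 0.96 each, DDX60 by 0.87 and DDX18 by 0.83. DDX47, DDX19B and DDX50 had values of -0.95, -0.51 and -0.28, and the call for DDX19B was lost without mutation 2 library 3 or without mutation 3 library 1 or 3. Across the 4 groups, 28 of the 31 genes differed (83.0% of all genes), and DDX11, DDX51 and DDX59 did not pass (adjusted p = 0.242, 0.201 and 0.177).

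Per kilobase of exon, over the means of the 4 groups, DDX5 was the most abundant DDX gene at 57.0 CPM per kb, followed by DDX21 at 48.9, DDX39A at 41.9, DDX3X at 34.65 and DDX54 at 27.5. This order did not hold in every group: with mutation 1, DDX5 was at 27.0 CPM per kb, below DDX21 at 49.8, DDX39A at 45.5 and DDX3X at 41.3. It also depends on the length used, that of all annotated exons joined, which is 15892 bases for DDX3X and 7388 for DDX5. This length includes bases shared with other genes, on which fragments were not counted. By CPM alone, over the means of the 4 groups, DDX3X was highest at 551 CPM and DDX5 measured 421 CPM. The lowest tested genes were DDX47 at 0.836 and DDX52 at 0.582 CPM per kb. The 4 germ-line genes, DDX4, DDX25, DDX43 and DDX53, held 1, 52, 16 and 9 counts over all 12 libraries and were not tested. DDX3Y is a member by name and was not tested either.

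DDX39B, the splicing and export helicase also called UAP56, had 0 counts in every library, and 33 of the 37 protein-coding genes within 250 kb of it on chromosome 6 were also at 0, against 14.7% of all protein-coding genes. DDX24 had 11 counts in all, with 4 of its 10 neighbours within 250 kb on chromosome 14 at 0. The zeros around DDX39B are thus shared by most of its region, and nothing is drawn from them about its expression. Most neighbours of DDX24 had counts, although 4 of 10 at 0 is also a larger share than 14.7%. DDX24 itself had too few counts to be tested, and nothing is drawn about its expression either.

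For comparison, 15 tested DEAH-box genes, a neighbouring helicase family, had 10 lower and 1 higher with mutation 1, 5 higher and none lower with mutation 2, and 8 lower and 1 higher with mutation 3. Once wild-type replicate 1 was left out, the counts were 12 lower and 1 higher, 5 higher and 7 lower, and 11 lower and 1 higher. DHX9, which unwinds RNA in the nucleus, averaged 91.1 ± 1.11 and 95.5 ± 1.54 CPM with mutations 1 and 3 and 270.2 ± 6.73 CPM with wild type, with log2 fold changes of -1.57 and -1.50. The eIF4A genes encode DEAD-box proteins under other names. EIF4A3, of the exon junction complex, averaged 112 ± 6.09, 138 ± 2.53 and 135 ± 1.22 CPM with mutations 1, 2 and 3 and 160 ± 13.1 CPM with wild type, and fell with each. EIF4A1, the translation initiation helicase, averaged 77.1 ± 3.76 CPM with mutation 1 and 4.58 ± 2.68 CPM with wild type, with 48.6% of its exon bases shared with other genes, so its level is uncertain. EIF4A2, its paralogue, averaged 686 ± 27.4, 281 ± 5.68 and 508 ± 6.44 CPM with mutations 1, 2 and 3 and 407 ± 130.1 CPM with wild type. It was higher with mutation 1 (0.75, adjusted p = 0.00399) and lower with mutation 2 (-0.54, adjusted p = 0.0423). In bulk RNA, fewer cells of a kind and less RNA per cell cannot be told apart for any of these genes.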

How the data were processed

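The deposited files hold whole-number counts of sequenced fragments for each gene in 12 libraries. According to their headers (per the file headers), the authors ran featureCounts 2.0.6 on the hg38 Ensembl gene track without strand, summed exons by gene ID and asked for a mapping quality of at least 10. Besides this, the submitters' processing notes list FastQC 0.11.8 and cutadapt 1.9.1, and STAR, SAMtools and DESeq2 with no version. Fragments that touched exons of more than 1 gene were not counted, so genes that overlap others are measured on part of their exons. Coordinates and exons came from GENCODE v29 (hg38). Of the 64252 gene IDs counted, 56591 are in GENCODE v29. Exon bases shared with the other IDs are not in the shares given here.

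CPM were scaled by TMM. All 12 libraries entered 1 fit in edgeR 4.0.16 (R 4.3.3; filterByExpr with minimum count 10 and minimum total 15; robust quasi-likelihood; 8 residual degrees of freedom), which tested 15094 genes with Benjamini-Hochberg adjustment over all of them. Each SE printed is an approximate one. Paralogue ratios used 0.5 added counts and exact permutation tests (scipy 1.17.1). Levels are mean ± SD of 3 libraries. Mutant libraries carry no replicate numbers in the labels, and those used here are names only. The alternatives were DESeq2 1.42.0, its size factors, library totals alone, no filter, only the libraries compared, and leaving out each library. The DDX genes and all lists were chosen with earlier results of these data known. Values per library are given for DDX5, DDX17, DDX6 and DDX3X. They are also given for up to 6 called members per mutation with the largest change against wild type, no overlap and at least 5 CPM in the higher group. From each list of other genes, up to 3 called genes with the lowest adjusted p could be named, and DROSHA and DGCR8 always.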

Additional observations from a re-analysis of the deposited data

How the results depend on the processing

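The number of DDX genes called with mutation 2 against wild type was 13 with all libraries, 7 with only the libraries of the 2 groups in the fit, and between 8 and 24 when 1 library was left out. Over all genes, the calls were 5588 of 15094, 2591 of 14002, and between 4207 of 15793 and 10725 of 15806. Leaving out 1 library gave 23 to 28 calls for mutation 1 against wild type, 17 to 26 for mutation 3 against wild type, 20 to 28 for mutation 1 against mutation 2, 13 to 22 for mutation 1 against mutation 3, 16 to 24 for mutation 2 against mutation 3, and 26 to 31 among the 4 groups. In the same order, calls over all genes ran from 9644 to 13064, 7969 to 12179, 8961 to 12676, 5145 to 10521, 6764 to 11518 and 12013 to 15006. Between 15358 and 15806 genes were tested in these fits. With library totals alone, DDX6 with mutation 1 against mutation 2 turned from a log2 fold change of 0.05 (adjusted p = 0.582) to -0.16 (adjusted p = 0.0407). The log2 ratio of DDX19B to DDX19A with mutation 2 against wild type was -0.00 and ran from -0.11 to 0.15 when 1 library was left out. Of the 186 fold changes of DDX genes, 182 kept their direction and their side of the threshold under DESeq2 and under its size factors. Without wild-type replicate 1, 41 more passed the threshold and 1 no longer did. On the linear scale, no called fold change moved by over 1.5 times under any alternative run. Small log2 values could still shrink, as for DDX18 with mutation 1 against wild type, from -0.26 to -0.09 without wild-type replicate 1. No paired analysis was possible because the mutant libraries carry no replicate numbers in the labels. Depth limits DDX28 with mutation 1 and DDX47 in wild type, which rest on few counts.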

Other observations

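Of 34 DDX genes with a promoter window in the RefSeq table (GRCh38.p14, 250 bases before to 50 after the start), 21 held CCGGAA, the core bound by ETS factors, on either strand. This is 61.8% of them, against 26.6% of 15843 protein-coding genes and 20.1% of all genes. CACGTG, the E-box bound by MYC and related factors, occurred in 5, namely DDX5, DDX21, DDX25, DDX31 and DDX54, which is 14.7% against 10.9% of protein-coding genes. These shares describe the letters in the windows, and their relation to the measured levels was not tested.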
